A study of Mus musculus with 12 samples.

Results

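The subject here is the step from 4 h to 12 h of BMP6 treatment in MECs, an endothelial cell line from the mouse embryo. Arrays were chosen by the treatment time in their titles, which gave 6 of the 12 arrays of the series, 3 at each time. Each array carried RNA of the cells, labelled with Cy5, against a universal mouse reference RNA labelled with Cy3. The cells of both groups were of the same line and had received the same ligand, so the groups differed by the length of treatment. The 12 h cultures may also have been in culture for longer, and the labels give the mock-treated controls no time. The effect of the ligand and that of time in culture therefore cannot be told apart in this comparison. The remaining 6 arrays, 3 mock-treated controls and 3 arrays at 24 h of BMP6, were used only to place the differences on the time course and in a fit over all arrays. The labels describe triplicate biological replicates but do not say what arrays of one replicate number share. The series title puts cyclooxygenase 2 and prostanoids at the centre of the study, and the comparison asks which transcripts moved on between the 2 times.

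BMP6 is a secreted ligand of the TGF-beta superfamily. It binds pairs of type I and type II serine/threonine kinase receptors, which phosphorylate the receptor SMADs. These enter the nucleus with SMAD4 and switch on direct targets, of which the Id genes, inhibitors of basic helix-loop-helix factors, are the best known. In endothelial cells BMP signals act on migration, junctions and the sprouting of vessels, and many first-wave transcripts made after a growth factor are short-lived and are followed by feedback inhibitors.

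Values were log ratios of the 2 channels. They were read on a log2 scale with the cells in the numerator, which the dyes make likely, but the sources used here give neither base nor direction. With the sign turned, every gene given as higher would be lower and the reverse. The 20280 value rows gave 8267 genes with a name. Names rest on an inferred order of the array grid, under which the 12 h minus 4 h difference of the first and second probe of a gene correlated at r = 0.371 across 1831 genes, against 0.0705 in the deposited order (genes are not independent replicates). Correlations between the 6 arrays ran from 0.919 to 0.974, and no array was a copy of another. Of 10 measured endothelial identity genes, the median level at 4 h was -0.71, and the defining genes Pecam1 (-1.57, -1.76 and -1.75 on the 3 arrays at 4 h) and Cdh5 (-1.64, -1.81 and -1.75) lay well below the pooled reference. Levels of blood cell, epithelial and liver, testis and brain markers at 4 h had medians of -0.56 over 5 genes, -0.94 over 10 and -2.44 over 6. Spot intensities were not used, so a low ratio does not say that a transcript was absent.

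At an adjusted p under 0.05, no gene and no probe differed between 12 h and 4 h in the fit of the 6 arrays paired by replicate number (limma, Benjamini-Hochberg; 0 of 8267 genes, 0.0%, and 0 of 20280 probes). At an unadjusted p under 0.05 the same fit gave 1592 of 8267 genes and 2943 of 20280 probes. The equal-variance test that the study's methods name, run without the pairing, gave 805 of 20280 probes unadjusted and 0 after adjustment. With no difference at all, a share of 0.05 is expected under that threshold, and the 805 probes were a smaller share. The smallest adjusted p of any gene was 0.0706. Below a looser adjusted p of 0.10 there were 243 genes (2.94%), 98 higher at 12 h (1.19%) and 145 lower (1.75%). That count was not stable: it was 6, all lower, after quantile normalization, 129 with 1 probe per gene, and 0 without replicate 2, without replicate 3 or without the block. Without replicate 1 it was 301. No gene is therefore said to have passed in these 6 arrays, and single genes are described by their size and their pairs. The differences over all genes ran from -1.38 to 1.11 with a median of 0.007.

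A second fit used all 12 arrays with the same pairing. It gave the same differences but estimated the spread from more arrays. It called 107 genes at an adjusted p under 0.05 (1.29%), 22 higher at 12 h (0.266%) and 85 lower (1.03%). All 107 had the same sign in the 3 pairs, where 24.9% of all genes were higher and 19.1% lower in all 3. Of the 107, 72 had no overlap between the 3 arrays of one time and the 3 of the other. Such separation was seen in 344 of all genes with 12 h above (4.16%) and 413 with 12 h below (5.0%). The 107 were chosen on values that include these 6 arrays, so neither count is separate evidence for them. Of the 107 genes, 95 had an adjusted p under 0.10 in the 6-array fit, the count that fell to 6 over all genes after quantile normalization. The calls were fragile: 2 genes were called without 4 h replicate 2, 7 without 4 h replicate 3, and 9, 6 and 5 without 12 h replicate 1, 2 or 3. Without 24 h replicate 1, 2 or 3 there were 31, 27 and 28 calls. Without 4 h replicate 1 there were 264, and without control replicate 1, 2 or 3 there were 113, 63 and 236. The genes called without each single array in turn were Mical2 and Ccn4. Below, "called" means called in this all-array fit, and beside each such adjusted p stands the highest one obtained with 1 array left out.

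**Figure D1:**
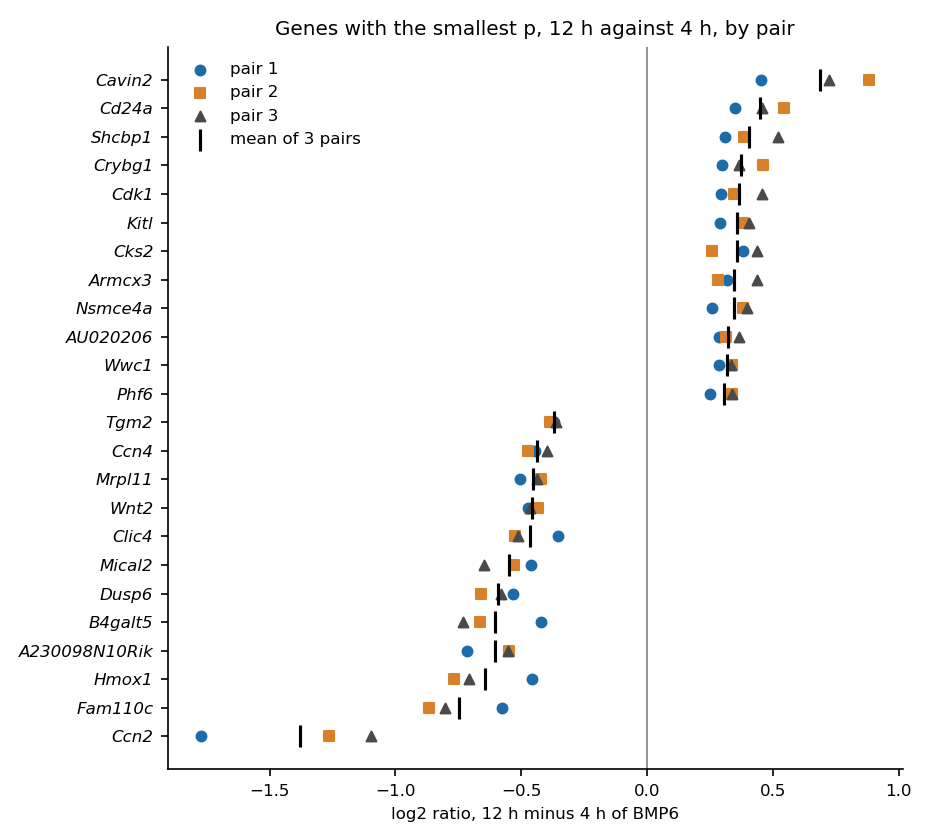
Difference between 12 h and 4 h of BMP6 (log2 ratio, horizontal axis) in each of the 3 pairs for the 12 genes higher and the 12 lower at 12 h with the smallest p in the 6-array fit. Symbols are pairs and the black bar is their mean; each gene lies on one side of 0 in every pair, from Cavin2 at 0.69 to Ccn2 at -1.38.

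The gene with the most negative difference was Ccn2, which encodes connective tissue growth factor, a secreted matricellular protein and a standard target of YAP and of TGF-beta signals. Its level was 1.58, 1.98 and 1.22 on the 3 arrays at 4 h and -0.20, 0.71 and 0.12 at 12 h. Every 12 h array lay below every 4 h array. The difference was -1.38 (SE 0.126, n = 3 pairs), a level 2.60-fold lower, with -1.77, -1.26 and -1.10 in the single pairs. Every SE given here and below is the moderated one of the 6-array limma fit. It borrows spread from other genes and does not measure the spread of the 3 pairs alone. The adjusted p was 0.0706 in the 6-array limma fit and 0.0198 in the all-array fit (up to 0.144, without 4 h replicate 2). Against control, Ccn2 stood at 1.37 after 4 h and -0.0070 after 12 h, so the mean was back at that of mock-treated cells, while the 12 h arrays spread more widely than the controls (0.31, 0.054 and 0.29). The 4 h arrays are shared between this step and the change from control, so the values are a description of one course and not separate evidence.

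Vcl, encoding vinculin, which links integrins and cadherins to actin, took the same course. It lay at 1.65, 1.74 and 1.71 at 4 h and at 1.19, 0.88 and 0.73 at 12 h, with no overlap. The difference was -0.77 (SE 0.10; adjusted p 0.0785 in the 6-array limma fit, and 0.00442 over all arrays, up to 0.0575 without 4 h replicate 2). Its 2 probes gave -0.80 and -0.73. Mical2, an actin-oxidising enzyme that promotes SRF-dependent transcription, went from 1.27, 1.46 and 1.26 to 0.81, 0.92 and 0.61. Its difference of -0.55 (SE 0.0530) was seen in all 3 probes (-0.43, -0.67 and -0.54), and it was called without each array in turn (adjusted p 0.00421, up to 0.0452). Both genes stood above control at 4 h, by 0.77 for Vcl and 0.57 for Mical2, and lay 0.0045 and 0.020 from it at 12 h.

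The list of SRF and YAP targets of actin and adhesion had 25 measured members. Called lower were 4 of them, Ccn2, Vcl, Itga5 and Actn1, and none was called higher, against 1.03% and 0.266% of all genes. Itga5, the fibronectin receptor subunit alpha 5, differed by -0.33, but its 2 probes disagreed in size (-0.092 and -0.56). Actn1, the actin crosslinker alpha-actinin 1, differed by -0.27. The all-array adjusted p was 0.0218 for Itga5 and 0.0444 for Actn1, up to 0.144 and 0.243 with 1 array left out. Most of the list did not share these sizes: the median was -0.057, and 12 members were lower and 3 higher in all 3 pairs, against 19.1% lower and 24.9% higher of all genes. The contractile genes Acta2 and Myl9 differed by -0.047 and -0.079, with adjusted p of 0.837 and 0.458 in the 6-array limma fit. Outside the list, several further genes of actin and cell shape were called lower: Pdlim5 (-0.30, 4 probes between -0.29 and -0.33), Cnn3 (-0.41), Enah (-0.34), Dbn1 (-0.34) and Clic4 (-0.46). Their all-array adjusted p reached 0.144, 0.220, 0.220, 0.172 and 0.194 with 1 array left out, and all but Clic4 were picked after their values were seen.

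The promoter of Vcl is shown because it holds both motifs searched for the actin group. It is RefSeq sequence of GRCm38.p6, chr14:20929148-20929447 on the plus strand, 300 bases that end just after the start site, 5′ to 3′. The first run of capitals is a CArG box, the motif bound by SRF, and the second is GGAATG, the motif bound by the TEAD partners of YAP.
Vcl: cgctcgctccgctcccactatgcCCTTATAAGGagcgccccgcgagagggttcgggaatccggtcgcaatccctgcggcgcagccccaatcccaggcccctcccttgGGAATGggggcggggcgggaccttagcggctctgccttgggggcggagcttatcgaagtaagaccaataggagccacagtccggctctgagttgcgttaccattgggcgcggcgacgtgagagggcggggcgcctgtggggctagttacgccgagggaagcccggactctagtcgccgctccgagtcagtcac
The CArG box begins 227 bases and the TEAD motif 143 bases upstream of the start site. In the promoters of Mical2, Itga5, Actn1 and Cnn1, searched in the same way, neither motif was found. Searched on both strands, the CArG box was found in 30.4% of the 23 promoters that the table holds for this list and in 1.63% of 32851 promoters of the same length, and GGAATG in 39.1% and 14.7%. Over 79 promoters of the genes called lower, the shares were 1.27% and 12.7%. The list was drawn up as SRF and YAP targets, so its higher shares can follow from how it was made and are no result of these arrays. A match describes the letters of a promoter and says nothing on binding in these cells.

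Among immediate early genes and feedback genes of growth factor signals, all calls were lower, as were 85 of the 107 over all genes. Of 25 measured members, 5 were called lower and none higher, against 1.03% and 0.266% of all genes. In all 3 pairs 17 were lower (68.0% against 19.1% of all genes) and 1, Klf10, was higher. The other 7, among them Fos, Nr4a2 and Spred2, kept no single direction. The list median was -0.15, and the medians of the single pairs were -0.14, -0.26 and -0.13, against 0.007 over all genes. Dusp6, the phosphatase that inactivates ERK, had the smallest p. Its level was -0.53, 0.31 and -0.0070 at 4 h and -1.06, -0.35 and -0.59 at 12 h; each 12 h array lay below its own partner, although the groups overlapped. The difference was -0.59 (SE 0.0472, adjusted p 0.0706 in the 6-array limma fit, 0.0253 over all arrays, up to 0.144 without 4 h replicate 2).

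Hbegf, a membrane-bound ligand of the EGF receptor, lay at 0.88, 1.27 and 1.06 at 4 h and at 0.59, 0.62 and 0.47 at 12 h. The groups did not overlap, and the difference was -0.51 (SE 0.0767; all-array adjusted p 0.0360, up to 0.217). Unlike Ccn2, Hbegf still stood 0.47 above control at 12 h, after 0.98 at 4 h. The stress-induced survival gene Ier3 differed by -0.55, the AP-1 subunit Fosl2 by -0.31 and the transcription factor Myc by -0.26, all called, with adjusted p of up to 0.220, 0.160 and 0.243 with 1 array left out. Errfi1, an inhibitor of the EGF receptor that was not in the list and was picked after its value was seen, lay at -0.88, -0.24 and -0.39 at 4 h and at -1.21, -1.21 and -1.24 at 12 h, and was called at -0.72 (adjusted p 0.0442, up to 0.236). Among the earliest transcripts, Egr1 differed by -0.22 and Fos by -0.0017, with adjusted p of 0.126 and 0.990 in the 6-array limma fit.

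Ptgs2, which encodes cyclooxygenase 2, the inducible enzyme of prostanoid synthesis, was measured at 4.08, 4.37 and 4.57 at 4 h and at 3.67, 3.75 and 3.50 at 12 h. All 12 h values were lower than all 4 h values. The difference was -0.70 (SE 0.122), 1.62-fold, and it missed the threshold in both limma fits (adjusted p 0.0922 over 6 arrays and 0.0738 over all). At 12 h Ptgs2 still lay 0.65 above control, against 1.35 at 4 h, and the step from 12 h to 24 h was -0.35. Mock-treated cells lay at 2.71, 2.74 and 3.52, so control replicate 3 overlapped the 12 h arrays. Of the 10 measured genes of prostanoid synthesis and reception, none was called. Ptgis, the prostacyclin synthase, differed by -0.26 and Ptges, the inducible prostaglandin E synthase, by -0.011 (adjusted p 0.106 and 0.927). The receptor Ptger2 differed by 0.25, higher in 3 of 3 pairs (adjusted p 0.0941). The list median was -0.015.

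**Figure D2:**
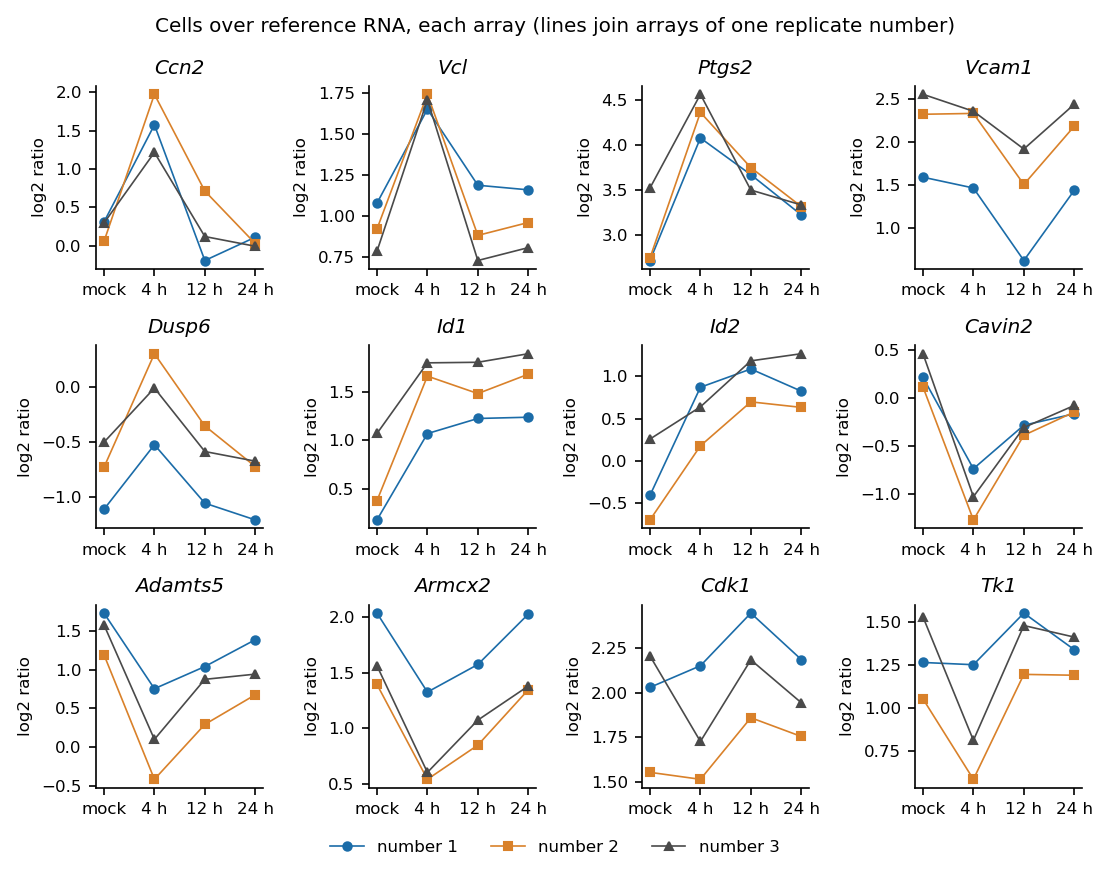
Level on each array (log2 ratio of cells to reference RNA, vertical axes differ between panels) in mock-treated cells and after 4, 12 and 24 h of BMP6 for 12 genes described in the text; lines join arrays of one replicate number. In Ccn2, Vcl and Ptgs2 all 12 h arrays lie below all 4 h arrays, in Cavin2 all lie above, and the means of Id1 at the 2 times differ by -0.006.

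Direct BMP targets showed no common direction. Id1 lay at 1.07, 1.67 and 1.81 at 4 h and at 1.23, 1.49 and 1.81 at 12 h, a difference of -0.0060 (SE 0.0710, adjusted p 0.971 in the 6-array limma fit). Id1 stood 0.98 above control at 4 h and 0.97 at 12 h. Id2 lay at 0.87, 0.18 and 0.64 and then at 1.08, 0.70 and 1.18, higher in every pair, by 0.43 (SE 0.0745, adjusted p 0.0930 over 6 arrays and 0.167 over all). Id3 differed by 0.15 (adjusted p 0.275) and was higher in 2 of 3 pairs. Against control Id2 went from 0.84 at 4 h to 1.27 at 12 h, and Id3 from 0.64 to 0.79. Of the 12 measured BMP targets none was called, 2 were higher and 5 lower in all 3 pairs (16.7% and 41.7%, against 24.9% and 19.1% of all genes), and the median was -0.007. Among the lower ones were Nog, the secreted BMP antagonist noggin (-0.31, adjusted p 0.110), and the transcription factor Msx1 (-0.17, adjusted p 0.252).

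The ligands, receptors and mediators of the BMP and TGF-beta pathways included 3 called genes among 29 measured, all lower at 12 h, where 1.03% of all genes were called lower. Tgfb1, the ligand TGF-beta 1, lay at 0.48, 0.74 and 0.64 at 4 h and at 0.19, 0.37 and 0.24 at 12 h, with no overlap and a difference of -0.36 (SE 0.0469). Acvr1, a type I receptor for BMPs also known as ALK2, lay at 0.47, 0.38 and 0.32 and then at 0.094, 0.13 and 0.090, a difference of -0.28. Skil, the SMAD corepressor SnoN, lay at 0.15, 0.31 and 0.35 and then at -0.067, 0.022 and 0.14, a difference of -0.24. In all 3 genes the groups were separate; the all-array adjusted p were 0.0300, 0.0322 and 0.0476, reaching 0.160, 0.156 and 0.243 with 1 array left out. Uncalled members with separate groups included the type II receptor Bmpr2 (-0.16) and Smad3 (-0.30). Of the 29, 14 were lower and 1 higher in all 3 pairs (48.3% and 3.45%, against 19.1% and 24.9% of all genes). The list median of -0.10 became -0.038 without replicate 2.

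Inflammatory genes included several calls. Of 21 measured cytokine, chemokine and NF-kappa-B genes, 4 were called lower and none higher, against 1.03% and 0.266% of all genes. In all 3 pairs 13 were lower (61.9% against 19.1% of all genes) and 3 higher, with a list median of -0.14. Vcam1, the adhesion molecule through which leukocytes bind endothelium, lay at 1.47, 2.33 and 2.35 at 4 h and at 0.63, 1.51 and 1.92 at 12 h. Each 12 h array lay below its partner, but the groups overlapped, as the arrays of replicate 1 were low at both times. The difference was -0.70 (SE 0.0875, adjusted p 0.0785 in the 6-array limma fit, 0.00442 over all arrays, up to 0.0575 without 4 h replicate 2). Its course was unlike that of Ccn2: Vcam1 was near control at 4 h (-0.10), below it at 12 h (-0.80), and the step from 12 h to 24 h was 0.67.

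The other 3 called genes of the list were Lbp, the lipopolysaccharide-binding protein (-0.40), Tnfaip2, a TNF-induced gene (-0.39), and Birc3, the inhibitor of apoptosis cIAP2 (-0.31). Their adjusted p over all arrays reached 0.231, 0.220 and 0.238 with 1 array left out. Probes of a gene disagreed in size for Tnfaip2 (-0.63, -0.083 and -0.46) and Birc3 (-0.072 and -0.55). The chemokine Ccl2 differed by -0.54 in the same direction without being called (adjusted p 0.0823 over 6 arrays, 0.0817 over all). The chemokine Cxcl12 went the other way, from 3.19, 2.18 and 2.25 at 4 h to 3.34, 2.76 and 3.20 at 12 h, higher in 3 of 3 pairs (0.56, adjusted p 0.136). Interferon response genes had no call among 18, a median of -0.052, and the smallest p at Tgtp1, a T-cell-specific GTPase (-0.60, adjusted p 0.121).

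Among 23 heat shock and oxidative stress genes, 2 were called lower, where 1.03% of all genes were, and none higher. Both are targets of NRF2. Hmox1, heme oxygenase 1, lay at 0.82, 1.33 and 1.22 at 4 h and at 0.37, 0.57 and 0.51 at 12 h. Srxn1, sulfiredoxin, lay at 0.51, 0.74 and 0.72 and then at 0.33, 0.42 and 0.35. In both genes every 12 h array lay below every 4 h array, with differences of -0.64 and -0.29 and adjusted p of 0.0145 and 0.0411 over all arrays (limma), up to 0.132 and 0.220. Nfe2l2, which encodes NRF2 itself, was called at -0.30 (up to 0.164, picked after its value was seen). Further NRF2 targets of the list were not called: Txnrd1 (-0.26), Gclc (-0.21), Prdx1 (-0.088), Gclm (-0.085) and Nqo1 (0.11). No chaperone of the list was called, and most were slightly higher. Hspe1 (0.25), Hsph1 (0.22), Hspd1 (0.21) and Dnajb1 (0.082) were higher in all 3 pairs. Those below 0 were Dnaja1 (-0.063), Bag3 (-0.041) and Hspb8 (-0.013). The list median was 0.026.

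Among the calls, 22 genes were higher at 12 h, although over all genes more were higher than lower in all 3 pairs (24.9% and 19.1%) and the all-array fit without 4 h replicate 1 called 133 higher and 131 lower. Cavin2, a coat protein of caveolae, lay at -0.73, -1.27 and -1.03 at 4 h and at -0.28, -0.39 and -0.30 at 12 h. All 12 h arrays were above all 4 h arrays, by 0.69 (SE 0.0844, 1.61-fold; adjusted p 0.0785 in the 6-array limma fit, 0.0212 over all, up to 0.144 without 4 h replicate 2). It stood at -1.28 against control at 4 h and at -0.59 at 12 h, so the higher 12 h level was still short of that of mock-treated cells. The other 6 measured genes of caveolae were not called; Cav1, the main coat protein, differed by -0.056 and Cav2 by 0.21.

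Adamts5, a protease that cleaves the proteoglycans aggrecan and versican, had a similar course. It lay at 0.75, -0.41 and 0.10 at 4 h and at 1.04, 0.29 and 0.88 at 12 h, higher in each pair by 0.29, 0.71 and 0.77. The groups overlapped, as replicate 1 was high at both times. The mean difference was 0.59 (SE 0.0988; all-array adjusted p 0.0400, up to 0.220), after a change from control of -1.35 at 4 h. The membrane protease Mmp14 was called in the opposite direction, from 1.07, 1.33 and 1.08 to 0.76, 0.60 and 0.77 with no overlap (-0.45, up to 0.144 with 1 array left out). The remaining 17 of 19 matrix proteases and inhibitors were not called.

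The Armcx genes are X-linked and encode armadillo-repeat proteins, some of which sit on the mitochondrial outer membrane. Of 8 measured genes in their list, 3 were called higher, where 0.266% of all genes were. Armcx2 lay at 1.33, 0.54 and 0.61 at 4 h and at 1.57, 0.85 and 1.07 at 12 h, Armcx3 at 0.15, -0.25 and -0.15 and 0.47, 0.038 and 0.29, and Armcx6 at -0.11, -0.48 and -0.29 and 0.44, -0.26 and 0.019. Each was higher at 12 h in every pair, by means of 0.34, 0.35 and 0.36, while replicate 1 was highest at both times and the groups overlapped. Their adjusted p reached 0.194, 0.161 and 0.238 with 1 array left out. Armcx1 and Armcx4 differed by 0.070 and -0.0088. Family members resemble each other in sequence, and each of the 3 was measured by 1 probe, so shared signal was not tested.

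Most genes of cell division were higher at 12 h by small amounts, from -0.016 to 0.52 among mitosis genes and from -0.030 to 0.52 among DNA replication genes. Of 35 mitosis genes, 30 were higher and none lower in all 3 pairs (85.7% against 24.9% of all genes), with a median of 0.18 and pair medians of 0.13, 0.16 and 0.26. Of 32 DNA replication genes, 26 were higher and none lower in all pairs (81.2%), with a median of 0.16 and pair medians of 0.075, 0.18 and 0.21. Only 1 gene of each list was called, the condensin subunit Smc4 (0.23, adjusted p up to 0.243 with 1 array left out) and thymidine kinase Tk1 (0.52, up to 0.235). Tk1 lay at 1.25, 0.59 and 0.81 at 4 h and at 1.55, 1.20 and 1.48 at 12 h. Cdk1, the kinase that starts mitosis, lay at 2.15, 1.52 and 1.73 and then at 2.45, 1.86 and 2.18, higher by 0.30, 0.35 and 0.46 in the 3 pairs (limma SE 0.0505, adjusted p 0.0785 over 6 arrays and 0.109 over all).

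In Cdk1 and Tk1 the groups overlapped, with replicate 1 highest at both times. Further members with a small p over 6 arrays were the CDK subunit Cks2 (0.36), the survivin gene Birc5 (0.37) and topoisomerase Top2a (0.26), each higher in all 3 pairs (adjusted p 0.0785, 0.0785 and 0.0930). Ect2, an exchange factor needed for cytokinesis, had the largest difference of the mitosis list, 0.52, with all 12 h arrays above all 4 h arrays (adjusted p 0.143). The replicative helicase subunits Mcm6 and Mcm7 differed by 0.32 and 0.33, whereas Mcm3 differed by -0.030. Against control, the median of the mitosis genes was -0.13 at 4 h, and from 12 h to 24 h it was -0.020.

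The promoters of Cdk1 and Top2a, of the mitosis list, are shown because they hold both motifs described here. They are RefSeq sequences of GRCm38.p6 on the minus strand, chr10:69352863-69353162 for Cdk1 and chr11:99024140-99024439 for Top2a, each of 300 bases that end just after the start site, printed 5′ to 3′. Capitals mark TTTGAA, the core of the cell cycle homology region (CHR) at which DREAM and B-MYB complexes bind, and CCAAT, the box bound by NF-Y, each also in reverse complement.
Cdk1: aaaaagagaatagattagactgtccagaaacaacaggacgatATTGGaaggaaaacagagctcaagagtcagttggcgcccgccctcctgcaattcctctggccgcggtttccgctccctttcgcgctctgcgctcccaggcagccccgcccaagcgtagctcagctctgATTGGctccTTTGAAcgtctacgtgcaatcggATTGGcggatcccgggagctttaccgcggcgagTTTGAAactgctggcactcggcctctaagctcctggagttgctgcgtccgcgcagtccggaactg
Top2a: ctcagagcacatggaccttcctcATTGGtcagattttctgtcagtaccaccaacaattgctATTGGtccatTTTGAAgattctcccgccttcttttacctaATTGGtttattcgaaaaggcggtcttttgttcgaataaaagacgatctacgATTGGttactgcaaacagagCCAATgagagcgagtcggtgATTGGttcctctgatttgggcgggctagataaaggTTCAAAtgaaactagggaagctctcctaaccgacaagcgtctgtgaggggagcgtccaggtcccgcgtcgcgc
In Cdk1 the TTTGAA motifs begin 71 and 15 bases upstream of the start site, with CCAAT boxes at 208, 80 and 48 bases. The promoter of Cks2 held CCAAT boxes but no TTTGAA, and that of Birc5 held neither motif. TTTGAA was found in 77.4% of 31 promoters of 28 mitosis genes and in 17.9% of all 32851 promoters, and CCAAT in 90.3% and 37.4%. For 32 promoters of DNA replication genes the shares were 6.25% and 53.1%, and for 8632 promoters of measured genes 12.2% and 37.0%. Over 18 promoters of the genes called higher they were 0.0% and 38.9%. The 21 mitosis genes with TTTGAA had a median difference of 0.20 and the 7 without it 0.18, and a link of motif and difference was not tested.

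**Figure D3:**
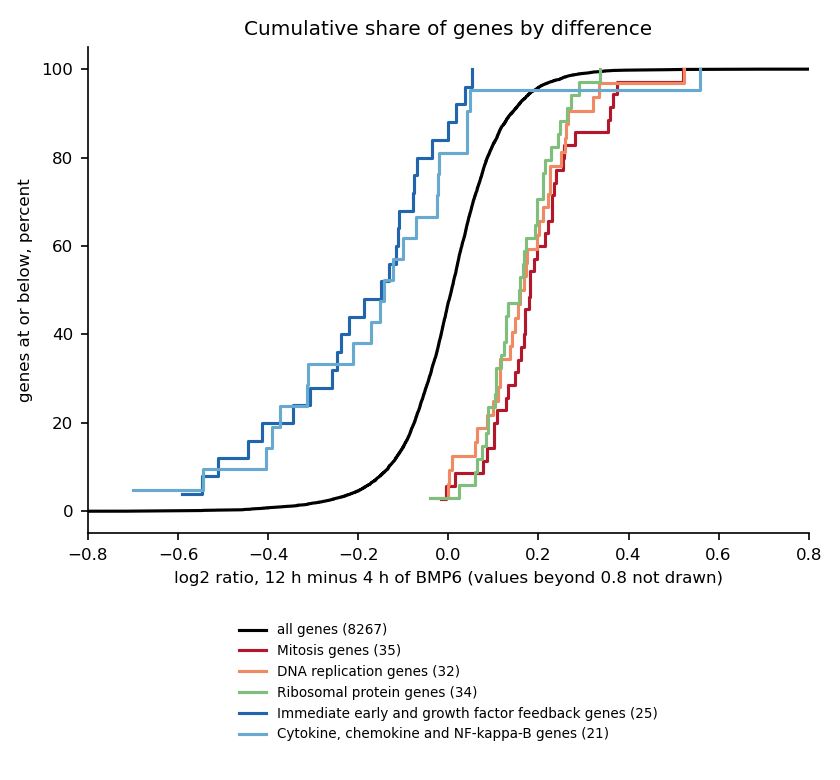
Cumulative share of genes (percent, vertical axis) at or below each 12 h minus 4 h difference (log2 ratio, horizontal axis, drawn from -0.8 to 0.8) for all 8267 genes and 5 lists. The curves of mitosis, DNA replication and ribosomal protein genes lie to the right of that of all genes, with medians of 0.18, 0.16 and 0.16, and those of the immediate early and cytokine lists to the left, at -0.15 and -0.14.

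Lists of protein synthesis, protein breakdown and respiration had small positive medians and no call. Of 34 ribosomal protein genes, 20 were higher and none lower in all 3 pairs (58.8% higher, against 24.9% of all genes), with a median of 0.16. This value rested on replicate 3: the pair medians were 0.049, 0.074 and 0.33, and without that replicate the list median was 0.063. Rpl34 had the smallest p (0.25, adjusted p 0.0898 over 6 arrays). Many ribosomal protein genes have processed pseudogenes close to them in sequence, and shared signal was not tested. Of 25 proteasome subunit genes, 18 were higher in all pairs (72.0%; median 0.11, Psma7 at 0.25, adjusted p 0.118). Of 30 respiratory chain genes, 18 were higher and 1 lower in all pairs (60.0% and 3.33%; median 0.084, and 0.048 without replicate 3; cytochrome c, Cycs, at 0.18, adjusted p 0.150). Ribosome biogenesis and nucleolar genes, by contrast, had a median of 0.030 over 22 members, with 4 higher and 4 lower in all pairs (18.2% each); the smallest p was that of Mybbp1a (0.12, adjusted p 0.225).

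Among secreted signals of the Wnt family, Ccn4, a Wnt-induced matricellular protein of the same family as Ccn2, was the one called of 22 Wnt pathway genes. It lay at 1.86, 1.51 and 1.54 at 4 h and at 1.41, 1.04 and 1.14 at 12 h, with no overlap, and was called without each array in turn (-0.44, SE 0.0439, adjusted p 0.0706 over 6 arrays and 0.00421 over all, up to 0.0452). Wnt2, a secreted ligand, lay at 0.87, 0.25 and 0.35 at 4 h and at 0.40, -0.18 and -0.11 at 12 h, lower by nearly the same amount in each pair (-0.47, -0.43 and -0.47). Its groups overlapped, and the adjusted p was 0.0706 over 6 arrays and 0.107 over all. Wnt2 still stood 0.96 above control at 12 h, after 1.41 at 4 h. The list median was 0.024, with 7 members higher and 2 lower in all pairs (31.8% and 9.09%, against 24.9% and 19.1% of all genes).

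Of 26 angiogenic growth factors and receptors, the VEGF receptor Flt1 was called, from -0.32, -0.27 and -0.20 at 4 h to -0.55, -0.64 and -0.54 at 12 h with no overlap (-0.31, adjusted p 0.0385, up to 0.220 with 1 array left out). Fgf2 (-0.41) and the main VEGF receptor Kdr (-0.24) were also lower in all 3 pairs without overlap, with adjusted p of 0.0556 and 0.239 over all arrays. In this list 10 members were higher and 10 lower in all pairs (38.5% each), and the median was -0.032. Of the 10 endothelial identity genes Flt1 was the one called, and the median was -0.043; Cdh5, VE-cadherin, differed by 0.0073. Notch pathway genes had a median of 0.007 over 17 members (Dll4 -0.15, adjusted p 0.187), and guidance genes of -0.053 over 27, with the repulsive ligand Sema3a higher in all pairs (0.48, adjusted p 0.0820).

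The remaining lists held single calls or none. Abca1, the cholesterol exporter, was called at -0.34 (up to 0.235) among 17 cholesterol genes with a median of 0.022. The first enzyme of glycolysis, Hk2, was called at -0.31 (up to 0.220) among 20 glycolysis and hypoxia genes with a median of 0.014. Plk2, a kinase induced by p53 and by serum, was called at -0.29 (up to 0.243) among 18 p53 and growth arrest genes with a median of -0.023. No call was made among 36 collagens, laminins and other matrix proteins (median -0.032), where the glycoprotein tenascin C had the smallest p (Tnc, -0.56, adjusted p 0.0785). Nor was one made among 21 unfolded protein and amino acid response genes (median 0.061, the oxidase Ero1a at -0.35, adjusted p 0.0785), 19 lysosome genes (-0.034, Gaa at -0.15) or 10 clock genes (-0.053, Arntl at -0.24).

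For markers of other cell types, medians were 0.024 over 12 fibroblast and mesenchymal markers (Vim 0.34, adjusted p 0.159 over 6 arrays), -0.017 over 9 smooth muscle markers (Cnn1 -0.14), -0.014 over 5 blood cell markers (Ms4a1 0.093), 0.011 over 10 epithelial markers (Cdh1 0.16) and -0.065 over 6 markers of liver, testis and brain (Apoa1 -0.19). No marker of these 5 lists was called. In whole cultures, a change in the cells present and a change within each cell cannot be told apart.

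**Figure D4:**
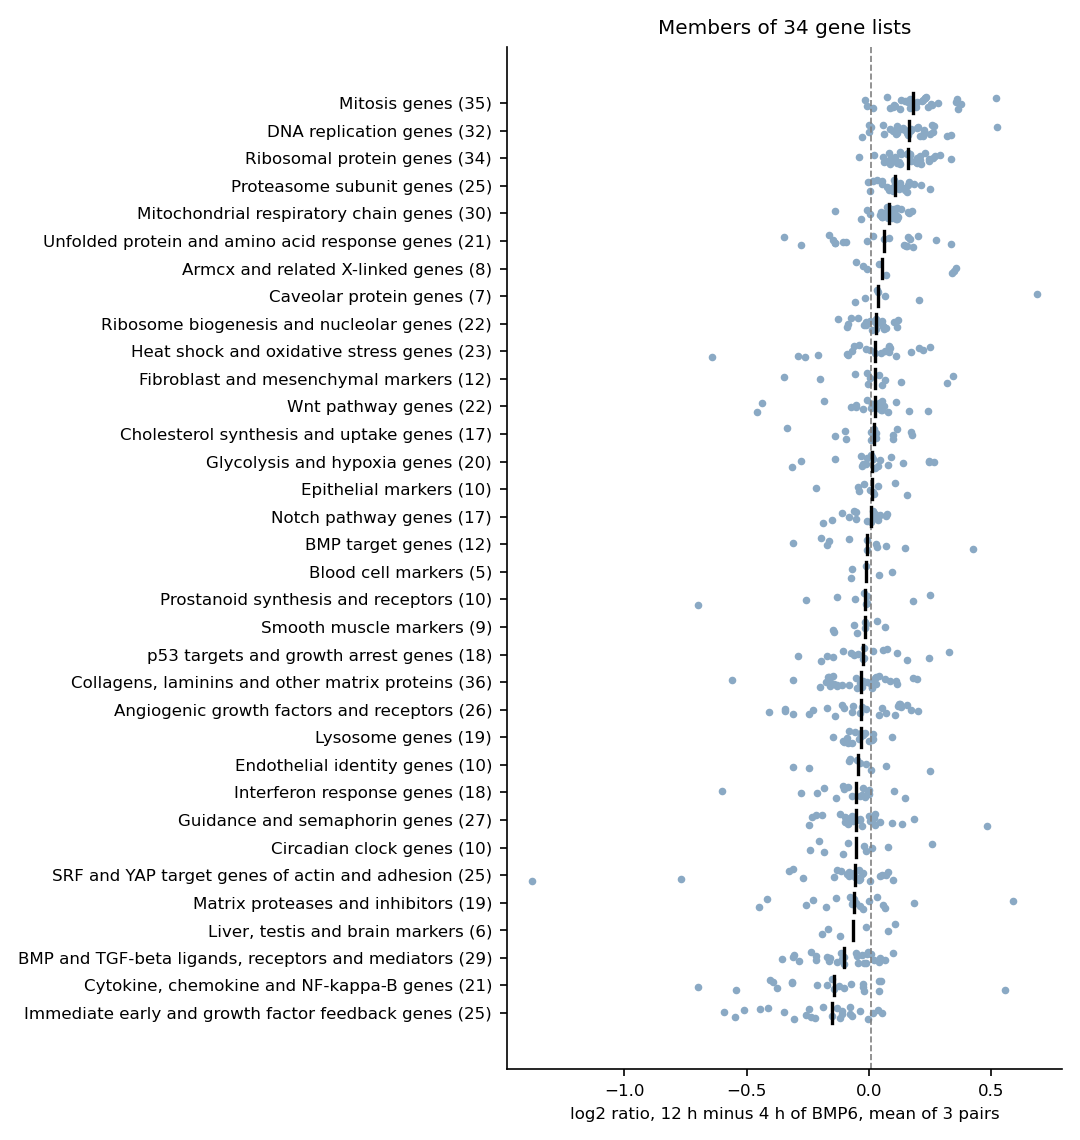
The 12 h minus 4 h difference (log2 ratio, horizontal axis, mean of 3 pairs) of every measured member of the 34 gene lists, one dot per gene, with the list median as a black bar, the number measured in parentheses and the median of all genes as a dashed line. Lists are ordered by their median, from mitosis genes at 0.18 to immediate early and feedback genes at -0.15; Ccn2 is the dot at -1.38.

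The rest of the genes with the smallest p over the 6 arrays belong to no list. Lower at 12 h were Fam110c, from 2.19, 3.42 and 3.47 to 1.61, 2.55 and 2.67 (-0.75), the galactosyltransferase gene B4galt5, from 1.17, 2.15 and 2.64 to 0.75, 1.49 and 1.91 (-0.61), the crosslinking enzyme Tgm2, transglutaminase 2 (-0.37), A230098N10Rik (-0.61) and Mrpl11, of the mitochondrial ribosome (-0.45). All but Mrpl11 were called, with adjusted p of up to 0.136, 0.0575, 0.132 and 0.184 with 1 array left out. Higher at 12 h were Shcbp1, called at 0.41 (up to 0.160), and, without a call, the surface glycoprotein Cd24a (0.45), the KIT ligand Kitl (0.36), Crybg1 (0.38), the SMC5/6 complex subunit Nsmce4a (0.35), the Hippo pathway scaffold Wwc1 (0.32), Phf6 (0.31) and AU020206 (0.32). Cd24a separated fully, at -1.56, -1.50 and -1.57 at 4 h and -1.21, -0.96 and -1.12 at 12 h.

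On the whole course, the 12 h mean lay between the control mean and the 4 h mean for 49 of the 107 called genes, and for 3189 of all genes (38.6%). Of the 107 called, 71 were also called at 4 h against control in the all-array fit, where 498 of all genes were (6.02%, with 188 higher, 2.27%, and 310 lower, 3.75%). At 12 h against control 156 genes were called (1.89%), 39 higher (0.472%) and 117 lower (1.42%). At 24 h against 12 h there were 9 (0.109%), 7 higher (0.0847%) and 2 lower (0.0242%). These comparisons share arrays with the step from 4 h to 12 h, so the counts are given side by side without a test of their overlap.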

How the data were processed

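Expression was measured on 2-colour Agilent 22k mouse development arrays, 6 of which (3 at 4 h and 3 at 12 h of BMP6) form the comparison. Per the labels, arrays were scanned with a GenePix 4000B instrument, quantified with GenePix Pro 5.0, and the authors then applied a local variant of quantile normalization of their own. The deposited values are log ratios used here as log2, without further normalization. No counts or intensities were used, so the number of arrays limits the precision.

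Groups and replicate numbers came from the sample titles. A platform table placed 10576 probes with 1 symbol on a value row, and the probes of a gene were averaged; 507 probes with several symbols named no gene, and 9704 rows in all carry no single gene. Symbols were updated for 10548 probes.

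Differences were fitted in R 4.3.3 with lmFit and eBayes of limma 3.58.1 (2-sided, Benjamini-Hochberg over all rows or genes, adjusted p under 0.05), with the replicate number as a block over the 6 arrays. The numbers were taken to pair the arrays because deviations from the group mean correlated at 0.67, 0.511 and 0.591 between same-numbered arrays. The values between the others, -0.486 to -0.0681, are not separate evidence. Deviations at each time sum to 0, so positive values between same-numbered arrays force negative ones elsewhere. Replicate number held 66.5% of the sum of squares, time 16.4%. The alternatives tried were no block, all 12 arrays, quantile normalization, median centring, robust eBayes, leaving out the lowest 0.25 of ratios, an adjusted p under 0.10, the methods' t-test, 1 probe per gene, and each replicate number left out. The alternatives to the all-array fit were added after its counts were seen.

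The comparison, the 34 lists and the genes always reported were chosen with earlier results of these data known. Named by rule were the 12 genes with the smallest p on each side (since none passed the threshold), the smallest p of each list, and Ptgs2, Id1, Id2, Id3, Wnt2, Ccn2, Hbegf and Cavin2. All other genes were named after their values were seen. Of the lists, the calls in the all-array fit, the counts over pairs and the median were given, with no list test. Promoters came from RefSeq (GRCm38.p6), 8632 of them for 6696 of the 8267 genes. The 7 motifs searched on both strands were GGAATG (TEAD), TGANTCA (AP-1), TTTGAA (CHR), CCAAT, TGACNNNGC (ARE), the NF-kB motif and the CArG box. These motifs and the promoters printed were chosen after the values were seen. In promoters of genes called lower, AP-1, ARE and NF-kB motifs were found in 3.8%, 12.7% and 1.27%. The shares were 0.0%, 11.1% and 0.0% for genes called higher, and 7.81%, 12.4% and 1.63% for all promoters.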

Additional observations from a re-analysis of the deposited data

Results flagged for a closer look

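For 30 of the 138 genes named by rule or called in the all-array fit, the 4 h arrays and the 12 h arrays lay on opposite sides of control in all 3 pairs. Among all genes this held for 1.27%. Both changes are measured against the same controls, the genes were chosen on the difference between 12 h and 4 h, and the opposition itself was not tested. Against control in the all-array fit (limma, adjusted p under 0.05), 9 of the 30 passed at 4 h and 1 at 12 h, Ccn4 (-0.33, adjusted p 0.00422). Ccn4 did not pass at 4 h (0.11, adjusted p 0.140), so 0 of the 30 passed on both sides.

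Above control at 4 h and below it at 12 h were 26 genes, given here with their 12 h minus 4 h difference: Pdlim5 (-0.301), Dbn1 (-0.335), Cnn3 (-0.411), Iqgap1 (-0.282) and Cttnbp2nl (-0.390). Further ones were Mmp14 (-0.450), Ccn4 (-0.438), the VEGF receptor Flt1 (-0.311), the cell surface genes Igsf3 (-0.366), Ninj1 (-0.255) and Nkain2 (-0.524), and the calcium pump Atp2b1 (-0.254). Others were Fosl2 (-0.308), Nfe2l2 (-0.302), Mapkapk2 (-0.212), Med13l (-0.244), Rasgrp2 (-0.295), Setdb1 (-0.570), Tnfaip2 (-0.391) and Plscr1 (-0.549). The remaining genes were A230098N10Rik (-0.605), B4galt5 (-0.605), Fam43a (-0.304), Mrpl11 (-0.454), Rsbn1 (-0.498) and Zswim4 (-0.360).

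Below control at 4 h and above it at 12 h were 4 genes, Shcbp1 (0.406), Cenph (0.290), Melk (0.289) and Smc4 (0.231). None of these 4 passed against control at either time, with adjusted p from 0.0628 to 0.472.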

How the results depend on the processing

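Over the 6 arrays, the count of 0 genes and of 0 probes was the same under quantile normalization, median centring and robust eBayes, with 1 probe per gene, and without the replicate block. Without the block, 383 of 8267 genes and 701 of 20280 probes had an unadjusted p under 0.05, both smaller shares than the 0.05 expected with no difference. The count moved to 107 genes and 20 probes with all 12 arrays, and to 66 of 6200 genes (13 higher, 53 lower) with the lowest 0.25 of ratios left out. At an adjusted p under 0.10 it was 243 genes, itself 0 to 301 with a replicate number left out, and 6 after quantile normalization. The methods' t-test without adjustment gave 805 of 20280 probes, also a smaller share than 0.05. Leaving out both arrays of a replicate number gave 0 to 49 genes, the 49 without replicate 1 (13 higher, 36 lower), and 0 probes. In the all-array fit, the 107 genes became 0 without the replicate block, 174 after quantile normalization (103 of the 107 among them, 60 higher and 114 lower) and 71 with 1 probe per gene. Leaving out arrays gave 0 to 264 genes, with 23, 0 and 1 when all arrays of replicate 1, 2 or 3 were left out. None of the 107 turned direction. With a replicate number left out this was fixed in advance, as all 107 had the same sign in the 3 pairs. Of 523 values of the genes named by rule, 455 kept their direction and side of the threshold, 67 passed it, and 1 reversed. The reversed gene was Id1: at -0.006, it became 0.0815 without replicate 2 and -0.0875 without replicate 1. None of these genes passed in the 6-array fit, so no call could be lost, and keeping the side meant only staying above the threshold. Causes were not tested. The 3 pairs leave 2 residual degrees of freedom per gene, the sign and base of the log are not stated, and spot signal over background was not used here.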

Other observations

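Further genes of signalling were called lower at 12 h in the all-array fit, all picked after their values were seen. Jak2, the kinase of many cytokine receptors, lay at 0.16, 0.46 and 0.52 at 4 h and at -0.18, 0.075 and 0.16 at 12 h (-0.36). Prkcd, protein kinase C delta, lay at 0.53, 0.61 and 0.55 and then at 0.26, 0.055 and 0.11 (-0.42). Tnfrsf12a, the receptor of the cytokine TWEAK, lay at 2.11, 2.40 and 2.30 and then at 1.77, 1.87 and 1.72 (-0.49). The RNA-editing enzyme gene Adarb1 differed by -0.39. The adjusted p of these 4 genes over all arrays (limma) lay at 0.0159, 0.0189, 0.0400 and 0.0173, and reached 0.132, 0.136, 0.220 and 0.136 with 1 array left out.

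The largest positive difference of all genes was that of Prl2c2, a proliferin, a secreted hormone of the prolactin family. It lay at 4.98, 3.21 and 3.28 at 4 h and at 5.66, 4.82 and 4.31 at 12 h, higher by 0.68, 1.61 and 1.04 in the 3 pairs (mean 1.11, SE 0.165). It was not called (adjusted p 0.0785 over 6 arrays, 0.0694 over all), and the groups overlapped. Against control it stood at -0.52 at 4 h and 0.59 at 12 h. Proliferin genes are near copies of each other, so the probe may not separate them.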
